A study of Mus musculus with 20 samples.

Results

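The TRBV genes TRBV14, TRBV15, TRBV16, TRBV19, TRBV20, TRBV23, TRBV24, TRBV26, TRBV29 and TRBV30 were followed in the T cell receptor (TCR) β chain of CD8 T cells from mice that differ in their proteasomes. They are 10 single-copy V genes in the forward orientation, 251 to 398 kb before Trbd1, a D gene of the locus. TRBV1 to TRBV13-3 lie farther from it. TRBV17, TRBV21, TRBV22 and TRBV25 lie among the 10 genes and are not included. A clone was counted for a gene when its CDR3 was in frame without a stop codon and the gene was the first V gene listed for it. These 10 of the 25 TRBV genes with any in-frame clone held 92797 of 250159 clonotypes in 17 libraries (37.1%), where a clonotype is a distinct combination of V gene, J gene and CDR3β amino acid sequence within a mouse. Of the 95483 clones behind them, 0.0168% listed several V genes.

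TCR transcripts of sorted CD8 T cells of lymph nodes and spleens were sequenced in 4 groups of male mice aged 9 to 12 weeks on the C57BL/6 background (the sample labels name lymph nodes only). WT mice carried both specialised proteasome subunits, β5i-KO mice lacked β5i, β5t-KO mice lacked β5t, and BIT mice carried the β5t-coding sequence of Psmb11 at the place of β5i-encoding Psmb8. Libraries of 4 WT (replicates 1 to 4), 5 β5i-KO (1 to 5), 4 β5t-KO (1 to 4) and 4 BIT mice (1, 2, 4 and 5) were compared, and values in lists follow this order of replicates. WT 5, which held 1 TCRβ read, and β5t-KO 5, with 11 in-frame clones, were not compared, nor was BIT 3, the shallowest BIT library (411 in-frame clones).

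β5t is the catalytic subunit of the thymoproteasome, which cortical thymic epithelial cells use to make the peptides on which CD8 T cells are positively selected, and β5i takes its place in the immunoproteasome of other antigen-presenting cells. A TCRβ chain is made by joining a V, a D and a J gene. Recombination signals beside each gene guide the cut, bases are trimmed and added at the joints, and the joint encodes the CDR3, the loop that mostly contacts the peptide. The V gene itself encodes the other loops, which mostly contact the MHC molecule.

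The libraries held 614169 to 2856711 TCRβ reads from 8119 to 146469 unique molecules, and 384 to 39542 in-frame clonotypes. The shallowest were β5t-KO 2 with 384 and WT 1 with 919 clonotypes, so a share of 1% there rests on few clonotypes. No pair among 28 within-group pairs of libraries was identical (0 of 28). Clonotypes of invariant natural killer T cells (TRAV11 with TRAJ18) were at most 0.0346% and those of mucosal-associated invariant T cells (TRAV1 with TRAJ33) at most 0.161% of TCRα clonotypes in any library. The labelled CD8 identity and the genotypes could not be read from TCR sequences.

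The germline end of each gene is shown first, since it sets the start of the CDR3 and the signal at which the gene is cut. All 10 genes lie on the forward strand of chromosome 6 (GRCm39, GENCODE vM39), from 41112079 to 41258924, a span of 147 kb that ends 251 kb before Trbd1. Each line gives the last 24 bases of the second V exon in lower case, then the adjoining intergenic recombination signal, with its heptamer and nonamer in capitals and its spacer in lower case.
TRBV14 (chr6:41112527-41112589): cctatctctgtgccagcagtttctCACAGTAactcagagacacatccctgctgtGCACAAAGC
TRBV15 (chr6:41118569-41118631): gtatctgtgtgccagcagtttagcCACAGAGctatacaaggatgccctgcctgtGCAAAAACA
TRBV16 (chr6:41129141-41129203): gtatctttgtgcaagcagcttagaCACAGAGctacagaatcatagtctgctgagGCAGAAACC
TRBV19 (chr6:41155959-41156021): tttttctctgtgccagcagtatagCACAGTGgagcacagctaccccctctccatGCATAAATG
TRBV20 (chr6:41165888-41165950): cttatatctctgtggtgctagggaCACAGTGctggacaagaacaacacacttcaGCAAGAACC
TRBV23 (chr6:41193437-41193498): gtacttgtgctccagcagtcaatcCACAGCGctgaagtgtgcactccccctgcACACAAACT
TRBV24 (chr6:41195468-41195530): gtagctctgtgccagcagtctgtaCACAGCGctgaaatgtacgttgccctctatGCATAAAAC
TRBV26 (chr6:41204904-41204966): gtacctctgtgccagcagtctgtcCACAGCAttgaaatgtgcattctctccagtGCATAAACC
TRBV29 (chr6:41248792-41248854): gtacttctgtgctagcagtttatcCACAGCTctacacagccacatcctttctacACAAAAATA
TRBV30 (chr6:41258901-41258963): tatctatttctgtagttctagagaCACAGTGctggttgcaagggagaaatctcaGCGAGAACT

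The usual heptamer CACAGTG was complete in 3 of the 10 genes, TRBV19, TRBV20 and TRBV30, and in 8 of the 23 TRBV genes listed from the annotation, on the strand of the gene. The other 7 matched it in 5 or 6 of 7 bases. Nonamers matched ACAAAAACC in 5 to 7 of 9 bases. The spacer was 23 bases long in 9 of the genes and 22 in TRBV23. In 9 genes the CDR3 opened with the cysteine codon tgt, and in TRBV23 with tgc. Of the germline V sequence, 14 bases of TRBV20 and TRBV30, 16 of TRBV14 and TRBV19 and 17 of the other 6 genes fall within the CDR3.

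TRBV24, known in the older nomenclature as Vβ17, is annotated as a pseudogene. Its reading frame meets a TAG stop codon at chr6:41195469-41195471, codon 109 of 115, which starts at base 2 of the line printed above, upstream of the cysteine codon. The in-frame rule reads the CDR3 only and so does not see this stop. Of 867 TRBV24 clones in the 17 libraries, 170 had an in-frame CDR3 without a stop (19.6%, exact 95% interval 17 to 22.4%). It ranged from 18.4% in WT to 20.3% in β5t-KO mice among the groups, with 19.4% in β5i-KO and 20.1% in BIT mice. Among the other 9 genes it ran from 96.2% for TRBV30 to 99.1% for TRBV29. None of the 170 distinct TRBV24 clonotypes was found in a second library.

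Shares of the repertoire fell into steps by their medians. TRBV16 (Vβ11) was the most used of the 10 genes in all 17 libraries, with a median of 11.8% of clonotypes, and had the highest median of all 25 TRBV genes. TRBV29 (Vβ7), TRBV19 (Vβ6) and TRBV15 (Vβ12) followed with medians of 5.67, 5.29 and 5.06%. Their order was not fixed, since TRBV29 exceeded TRBV19 in 11 of 17 libraries and TRBV19 exceeded TRBV15 in 8. TRBV20 (Vβ15) and TRBV14 (Vβ13) had medians of 2.93 and 2.45%, with TRBV20 above TRBV14 in 12 libraries. TRBV23 (Vβ20) and TRBV26 (Vβ3) had medians of 1.39 and 1.22%, TRBV30 (Vβ18) 0.653% and TRBV24 0.0697%. Between neighbours by median, TRBV16 exceeded TRBV29, TRBV15 exceeded TRBV20, TRBV26 exceeded TRBV30 and TRBV30 exceeded TRBV24 in 17 of 17 libraries. TRBV14 exceeded TRBV23 in 16. The steps did not hold for every gene of a step in each library. In WT 1 TRBV19 (3.05%) lay below TRBV20 (3.48%), and TRBV23 (0.871%) below TRBV30 (0.979%).

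**Figure D1:**
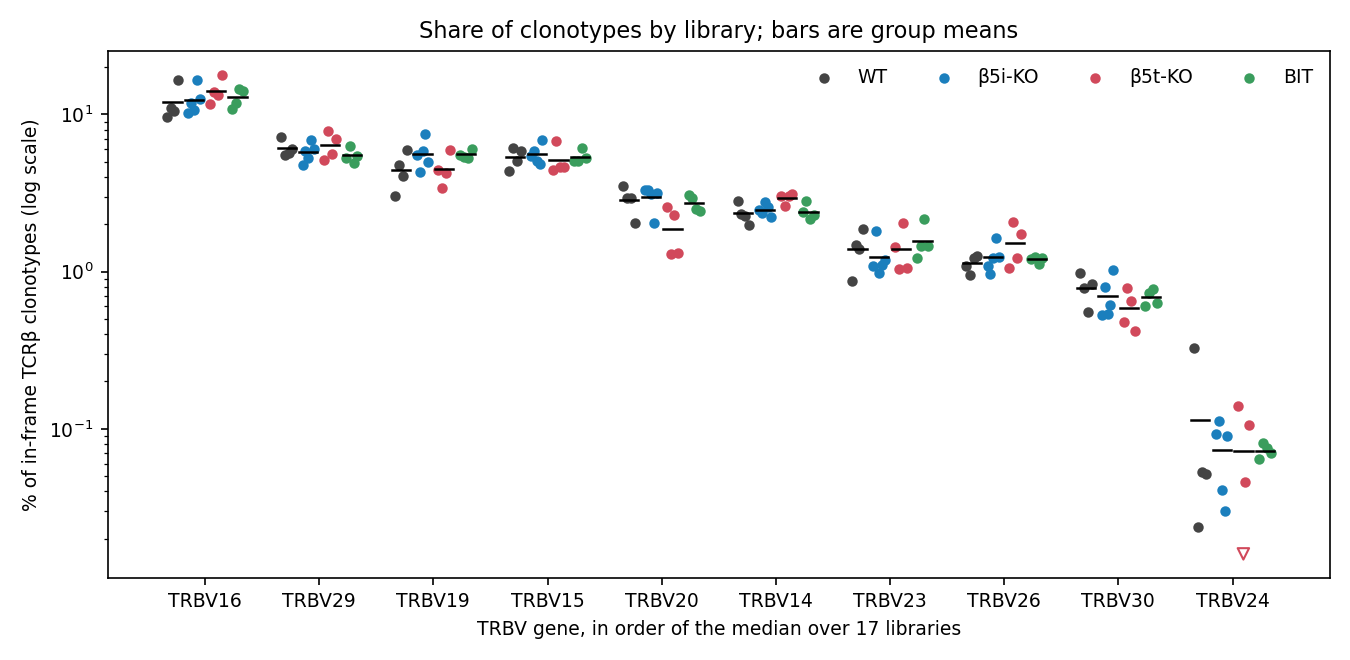
Share of in-frame TCRβ clonotypes (%, log scale) of the 10 TRBV genes, with 1 point per mouse coloured by group, and a bar at each group mean; the open triangle marks the 1 library with no TRBV24 clonotype. Shares run from 9.68 to 17.9% for TRBV16 down to at most 0.326% for TRBV24, and the 4 groups overlap for each gene.

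TRBV16 took 9.68, 11, 10.5 and 16.5% of clonotypes in the WT libraries, 10.2, 11.8, 10.7, 16.5 and 12.6% in the β5i-KO libraries, 11.7, 13.8, 13.2 and 17.9% in the β5t-KO libraries and 10.9, 11.8, 14.6 and 14.1% in the BIT libraries. Every library labelled as replicate 4 was the highest of its group. TRBV14 took 2.83, 2.34, 2.25 and 1.99% of clonotypes in the WT libraries, 2.45, 2.37, 2.79, 2.57 and 2.21% in the β5i-KO libraries, 3.02, 2.6, 3.01 and 3.11% in the β5t-KO libraries and 2.39, 2.8, 2.15 and 2.3% in the BIT libraries. In β5t-KO mice 3 libraries exceeded every WT library, and β5t-KO 2, with 10 TRBV14 clonotypes, lay below WT 1. TRBV20 took 3.48, 2.93, 2.96 and 2.04% of clonotypes in the WT libraries, 3.32, 3.33, 3.1, 2.05 and 3.16% in the β5i-KO libraries, 2.58, 1.3, 2.29 and 1.32% in the β5t-KO libraries and 3.07, 2.95, 2.5 and 2.44% in the BIT libraries. The lowest of the 17 values were those of β5t-KO 2 and 4, and β5t-KO 1 and 3 lay within the WT range.

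TRBV29 took 7.18, 5.54, 5.67 and 6.04% of clonotypes in the WT libraries, 4.78, 5.87, 5.3, 6.84 and 6.06% in the β5i-KO libraries, 5.11, 7.81, 5.64 and 6.95% in the β5t-KO libraries and 5.29, 6.3, 4.88 and 5.47% in the BIT libraries. The highest value came from the shallow β5t-KO 2. TRBV19 took 3.05, 4.8, 4.04 and 5.91% of clonotypes in the WT libraries, 5.51, 4.3, 5.88, 7.52 and 4.99% in the β5i-KO libraries, 4.4, 3.39, 4.24 and 5.95% in the β5t-KO libraries and 5.53, 5.4, 5.29 and 6.05% in the BIT libraries. WT 1 was lowest here. TRBV15 took 4.35, 6.11, 5.06 and 5.82% of clonotypes in the WT libraries, 5.47, 5.89, 5.04, 4.81 and 6.87% in the β5i-KO libraries, 4.4, 6.77, 4.6 and 4.63% in the β5t-KO libraries and 5.05, 5.03, 6.1 and 5.28% in the BIT libraries. The ranges of the 4 groups overlapped.

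TRBV23 took 0.871, 1.47, 1.39 and 1.88% of clonotypes in the WT libraries, 1.09, 1.81, 0.976, 1.1 and 1.18% in the β5i-KO libraries, 1.44, 1.04, 2.04 and 1.05% in the β5t-KO libraries and 1.22, 1.46, 2.17 and 1.46% in the BIT libraries. The highest TRBV23 share was that of BIT 4. TRBV26 took 1.09, 0.947, 1.22 and 1.26% of clonotypes in the WT libraries, 1.09, 0.972, 1.22, 1.64 and 1.24% in the β5i-KO libraries, 1.05, 2.08, 1.22 and 1.74% in the β5t-KO libraries and 1.21, 1.24, 1.11 and 1.22% in the BIT libraries. The β5t-KO group held both the highest TRBV26 value and values within the WT range. TRBV30 took 0.979, 0.781, 0.551 and 0.831% of clonotypes in the WT libraries, 0.53, 0.804, 0.536, 0.613 and 1.02% in the β5i-KO libraries, 0.478, 0.781, 0.653 and 0.421% in the β5t-KO libraries and 0.603, 0.73, 0.779 and 0.634% in the BIT libraries. For TRBV24 the shares were 0.326, 0.0237, 0.0531 and 0.0512% in the WT libraries, 0.0931, 0.112, 0.0405, 0.0301 and 0.0897% in the β5i-KO libraries, 0.139, 0, 0.0456 and 0.105% in the β5t-KO libraries and 0.0638, 0.0811, 0.0759 and 0.0697% in the BIT libraries. The value of WT 1 came from 3 clonotypes, and 0 of 384 clonotypes in β5t-KO 2 allows a share of up to 0.781% (counting error only).

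Summed over the 10 genes, the share was 36.4 ± 4.05% of clonotypes in the WT libraries, 38.1 ± 3.65% in the β5i-KO libraries, 38.5 ± 3.79% in the β5t-KO libraries and 38 ± 1.89% in the BIT libraries (SD, n = 4, 5, 4 and 4). By unique molecules it was 31.2, 33.8, 32.9 and 34.1%, and by reads 36.3, 36.5, 37.2 and 36.5%. Clonotypes of the 10 genes held 3.59 molecules on average, against 4.37 for those of the other TRBV genes. The sum also varied with the replicate number in the labels. The 4 libraries numbered 4 ran from 39.6 to 43.7%, and the 13 others from 33.7 to 39.6%. TRBV16 took 14.6 to 17.9% in the libraries numbered 4 and 9.68 to 14.1% in the rest. TRBV12-1 and TRBV12-2, chosen after their values were seen, ran the other way, with 1.05 to 3.02% and 0.925 to 2.61% in the libraries numbered 4 against 2.96 to 7.53% and 2.05 to 5.55% in the others. What the number stands for is not given in the sources used here.

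**Figure D2:**
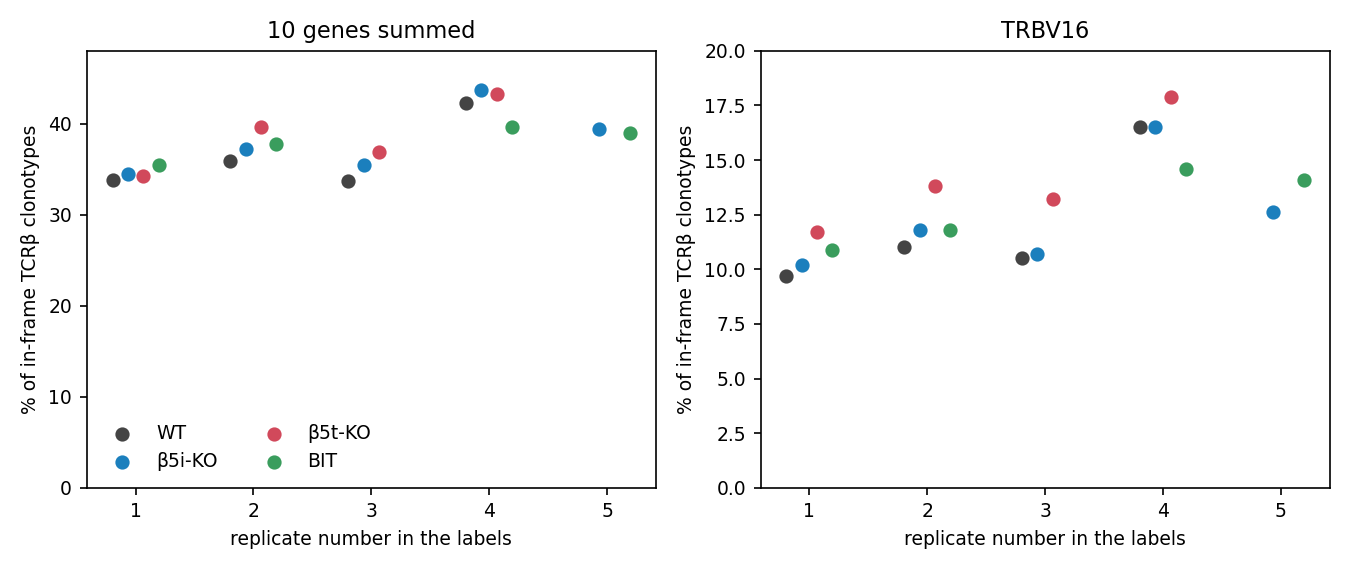
Share of in-frame TCRβ clonotypes (%) of the 10 genes summed (left) and of TRBV16 (right) against the replicate number in the labels, with 1 point per mouse, coloured by group. The libraries numbered 4 hold the highest value of each group, and at numbers 1 to 4 the β5t-KO point lies above the WT point in the right panel.

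The TRBV genes most like the summed share across the 17 libraries were TRBV13-3 (Spearman rho 0.77), TRBV13-2 (0.60) and TRBV17 (0.39). Shares of 1 library add up to 100%, so such correlations are descriptions only.

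Usage was then compared between genotypes with the quasi-likelihood test of edgeR on clonotype counts. Of 23 TRBV genes tested, the 10 genes among them, none passed an adjusted p of 0.05 in any of the 5 comparisons (0 of 10 genes, 0% of all genes tested). At an unadjusted p under 0.05 there were 0 of the 10 genes for β5i-KO against WT, 1 for β5t-KO against WT, 0 for BIT against WT, 0 for BIT against β5i-KO and 1 for BIT against β5t-KO. Over all 23 genes there were 1, 2, 0, 0 and 2 in this order (4.35, 8.7, 0, 0 and 8.7%). DESeq2 called 1 of the 10, TRBV14 in β5t-KO against WT (4.35% of the 23 genes), and 0 in the other 4 comparisons. The median log2 fold change of the 10 genes was 0.08, 0.03, 0.06, -0.03 and -0.02 in the 5 comparisons in this order, beside 0.04, 0.02, 0.06, 0.00 and 0.07 over all genes tested. Of the 13 other TRBV genes, 0 rose and 0 fell in each of the 5 comparisons with edgeR.

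TRBV14 had the smallest p in both comparisons that involve β5t-KO mice. Its share was 2.94 ± 0.225% in β5t-KO and 2.35 ± 0.35% in WT mice (SD, n = 4 each), a log2 fold change of 0.37 ± 0.13 (SE) with an adjusted p of 0.329 in edgeR and 0.0446 in DESeq2. Against β5t-KO mice, BIT mice at 2.41 ± 0.278% (SD, n = 4) differed by -0.31 ± 0.13 in edgeR (adjusted p 0.367). Elsewhere the smallest p belonged to TRBV19, at 0.32 ± 0.19 for β5i-KO against WT (edgeR adjusted p 0.889) and 0.29 ± 0.19 for BIT against WT (0.796), and to TRBV23 at 0.37 ± 0.24 for BIT against β5i-KO (0.995).

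With the replicate number as a block in edgeR, TRBV16 was higher in β5t-KO against WT by 0.25 ± 0.07 on the log2 scale (adjusted p 0.0335; 4.35% of the 23 genes). Without the block the difference was 0.24 ± 0.19 with an adjusted p of 0.732. Whether the numbers pair these groups is not settled. The lowest correlation of same-numbered libraries was 0.24, 0.15, 0.01 and 0.01 with 0.01, 0.1, 0.5 and 1 added to the shares before the log. The call thus rests on an open choice of design. The β5t-KO library was above the WT library of the same number in 4 of 4 pairs, at 11.7 against 9.68%, 13.8 against 11%, 13.2 against 10.5% and 17.9 against 16.5%. TRBV14 was also higher in 4 of 4 pairs (0.41 ± 0.16, adjusted p 0.1 with the block), and TRBV20 lower in 4 of 4 (-0.45 ± 0.17, adjusted p 0.1 with the block). Between BIT and β5t-KO mice, the blocked differences were -0.20 ± 0.07 for TRBV16 and 0.48 ± 0.17 for TRBV20, both at an adjusted p of 0.0555 in edgeR, with all 3 pairs in the same direction for each.

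Junctions differed in make-up among the 10 genes. Over the libraries, clonotypes had 12.2 ± 0.444 CDR3 bases assigned to V for TRBV30 (SD, n = 16), 12.3 ± 0.182 for TRBV20 (SD, n = 17) and 14.6 ± 0.307 for TRBV23 (SD, n = 16). Between V and J lay 8.56 to 9.78 bases on average, the D gene included. By this assignment no V base was trimmed in 37.8 ± 2.57% of TRBV20, 32 ± 10.5% of TRBV30 and 30 ± 7.84% of TRBV23 clonotypes, against 7.53 ± 2.68% for TRBV14 and 5.05 ± 1.84% for TRBV15 (SD). TRBV20 and TRBV30 are also the genes whose germline end in the lines above gives the CDR3 the fewest bases. An added base that happens to match the germline is counted as V, and the alignments also count some bases past the germline end as V, in 2.73% of TRBV14 up to 16.4% of TRBV23 in-frame clones. The V lengths and untrimmed shares include such clones.

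**Figure D3:**
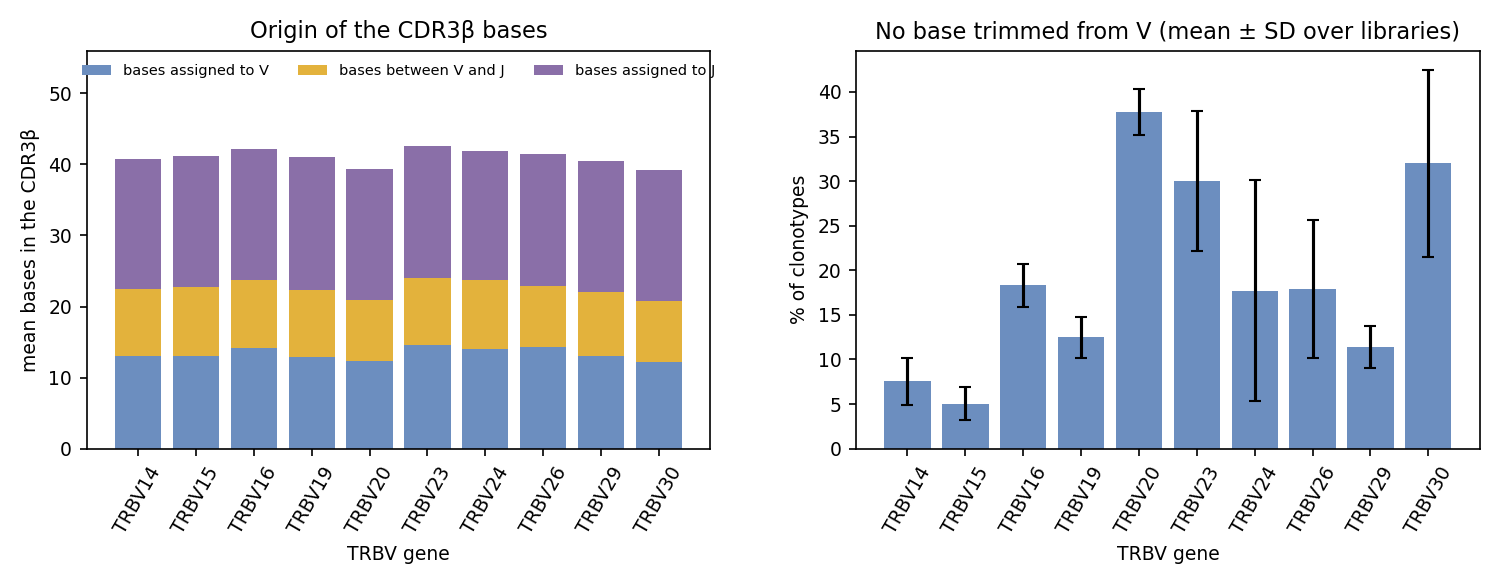
Left, mean number of CDR3β bases assigned to V, lying between V and J, and assigned to J for each of the 10 genes (over 11 to 17 libraries with at least 5 clonotypes); right, share of clonotypes with no base trimmed from V (%), mean ± SD over these libraries. TRBV20 (37.8%), TRBV30 (32%) and TRBV23 (30%) are the least often trimmed, and TRBV15 (5.05%) the most often.

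For each gene the in-frame clonotype found in the most libraries is shown, in the nucleotide version found in the most libraries, to give examples of whole junctions. Lower case marks bases assigned to V (left) and J (right), and capitals mark the bases between them, 5′ to 3′. The V stretch printed for TRBV23 is 18 bases long, 1 more than the germline gene gives the CDR3. That of TRBV24 is 17 bases long, with 0 bases between V and J. It does not match the germline line above at 1 base near its end, so its border with J is uncertain.
TRBV14 with TRBJ2-1: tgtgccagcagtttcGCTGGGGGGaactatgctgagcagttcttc
TRBV15 with TRBJ1-1: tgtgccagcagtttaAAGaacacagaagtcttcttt
TRBV16 with TRBJ1-3: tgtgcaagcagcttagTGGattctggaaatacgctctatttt
TRBV19 with TRBJ2-1: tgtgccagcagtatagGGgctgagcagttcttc
TRBV20 with TRBJ2-7: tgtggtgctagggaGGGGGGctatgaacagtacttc
TRBV23 with TRBJ2-4: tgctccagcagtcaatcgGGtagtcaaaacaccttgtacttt
TRBV24 with TRBJ1-6: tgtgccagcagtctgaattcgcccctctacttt
TRBV26 with TRBJ2-1: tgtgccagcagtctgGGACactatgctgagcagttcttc
TRBV29 with TRBJ2-5: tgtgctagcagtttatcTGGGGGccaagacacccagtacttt
TRBV30 with TRBJ2-7: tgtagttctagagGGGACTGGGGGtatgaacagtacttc

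The TRBV16 clonotype, by its amino acid sequence, was found in 11 of 17 libraries (3 of WT, 3 of β5i-KO, 1 of β5t-KO and 4 of BIT mice), and the printed version of it in 8. The TRBV19 clonotype was found in 10 libraries, that of TRBV15 in 9, TRBV29 in 8 and TRBV20 in 7. The TRBV26 clonotype was found in 6, that of TRBV14 in 5, TRBV23 and TRBV30 in 4 each, and TRBV24 in only 1. The printed TRBV14 version came from 1 library, since its 5 libraries held 5 versions. Of the 10 junctions, 8 carried at most 6 bases between V and J. TRBV16 had the largest share of distinct clonotypes found in 2 or more libraries, 13.4%, and TRBV23 and TRBV30 had 4 and 4.11%, against 11.1% for the other TRBV genes together. The genes differ in their number of clonotypes and the libraries in depth, and their part in these shares was not tested. Shared clonotypes were shorter than those found in 1 library for each of the 9 genes that had any, for example 13.74 against 14.31 residues for TRBV16 and 12.68 against 13.20 for TRBV20. The other TRBV genes together showed the same, with 13.57 against 14.14 residues.

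J gene use differed among the V genes too. TRBJ2-7 was the leading J gene of all 10. The TRBJ2 cluster supplied 79.2 ± 5.11% of TRBV14 and 77.7 ± 7.01% of TRBV30 clonotypes, but 61.9 ± 6.39% of TRBV19 and 64.1 ± 4.52% of TRBV29 clonotypes (SD over 16 or 17 libraries). Among the other TRBV genes together it was 72 ± 2.4%. Of 104 V and J pairs of the 10 genes, edgeR called 0 in each of the 5 comparisons (0% of 248 pairs). At an unadjusted p under 0.05 in edgeR there were 2, 5, 0, 3 and 7 in the order above. These are 1.92, 4.81, 0, 2.88 and 6.73% of the 104, beside 6.05, 3.63, 0, 2.42 and 4.84% of all 248. DESeq2 called 0 of the pairs in each comparison. The pair with the smallest p in β5t-KO against WT was TRBV14 with TRBJ2-1, at a log2 fold change of 0.76 ± 0.23 (edgeR adjusted p 0.872). TRBJ2-1 made up 17.6 ± 3.01% of TRBV14 clonotypes in β5t-KO and 13.3 ± 2.7% in WT mice (SD, n = 4 each).

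Mean CDR3β length over clonotypes was compared next, with limma, for the 21 TRBV genes with enough clonotypes, 9 of the 10 among them (TRBV24 had too few). In β5t-KO against WT mice 4 of the 9 genes were called, TRBV14 and TRBV26 with shorter and TRBV15 and TRBV29 with longer CDR3β, while 38.1% of all 21 genes were called. Calls of either direction were 9.52% of the 21 genes for longer and 28.6% for shorter CDR3β, so the share of 4 of 9 is near that of all genes. Both genes called longer were among the 9, and of the 12 other TRBV genes 4 were shorter and 0 longer. The median difference of the 9 genes was -0.02 residues, as over all 21.

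Mean TRBV14 CDR3β length was 13.46, 13.78, 13.78 and 13.59 residues in the WT libraries, 13.67, 13.55, 13.75, 13.72 and 13.73 in the β5i-KO libraries, 13.41, 13.30, 13.50 and 13.39 in the β5t-KO libraries and 13.64, 13.60, 13.73 and 13.69 in the BIT libraries. The 4 β5t-KO values lay below all β5i-KO and BIT values, and of the WT values only that of WT 1, from 26 clonotypes, fell among them. The fitted difference from WT was -0.25 ± 0.07 residues (SE, limma adjusted p 0.00697). Clonotypes of at least 15 residues made up 21.8 ± 1.98% of TRBV14 clonotypes in β5t-KO and 28.3 ± 4.99% in WT mice, and those of at most 12 residues 24.9 ± 3.82 and 20.7 ± 2.52% (SD, n = 4 each).

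For TRBV26 the values were 14, 13.88, 13.92 and 13.97 residues in the WT libraries, 13.81, 14.12, 13.87, 13.71 and 13.97 in the β5i-KO libraries, 13.59, 14.12, 13.43 and 13.79 in the β5t-KO libraries and 13.60, 13.80, 13.78 and 13.83 in the BIT libraries. β5t-KO 1, 3 and 4 were below every WT library, and β5t-KO 2, with 8 clonotypes, above them. The fit, which weights a library by its clonotypes, gave -0.37 ± 0.10 residues (limma adjusted p 0.0083), and -0.21 without weights (adjusted p 0.195). BIT and WT values did not overlap, but that difference of -0.19 ± 0.07 was not called (limma adjusted p 0.262, 0% of 21 genes called).

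TRBV15 moved the other way, with 13.72, 13.66, 13.63 and 13.65 residues in the WT libraries, 13.74, 13.80, 13.76, 13.71 and 13.59 in the β5i-KO libraries, 13.83, 13.92, 13.76 and 13.76 in the β5t-KO libraries and 13.70, 13.70, 13.70 and 13.76 in the BIT libraries. All 4 β5t-KO values exceeded all WT values. The difference was 0.15 ± 0.06 residues (limma adjusted p 0.042), and 0.15 ± 0.06 with the replicate number as a block (adjusted p 0.0681), which did not pass. TRBV29 had 13.42, 13.45, 13.42 and 13.51 residues in the WT libraries, 13.52, 13.48, 13.48, 13.43 and 13.42 in the β5i-KO libraries, 13.66, 13.40, 13.64 and 13.86 in the β5t-KO libraries and 13.47, 13.44, 13.64 and 13.46 in the BIT libraries. Its β5t-KO values lay above the WT values except for β5t-KO 2, from 30 clonotypes, and the difference was 0.23 ± 0.06 residues (limma adjusted p 0.00697). TRBV29 clonotypes of at most 12 residues were 18 ± 1.02% in β5t-KO and 24.1 ± 1.94% in WT mice (SD, n = 4 each).

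**Figure D4:**
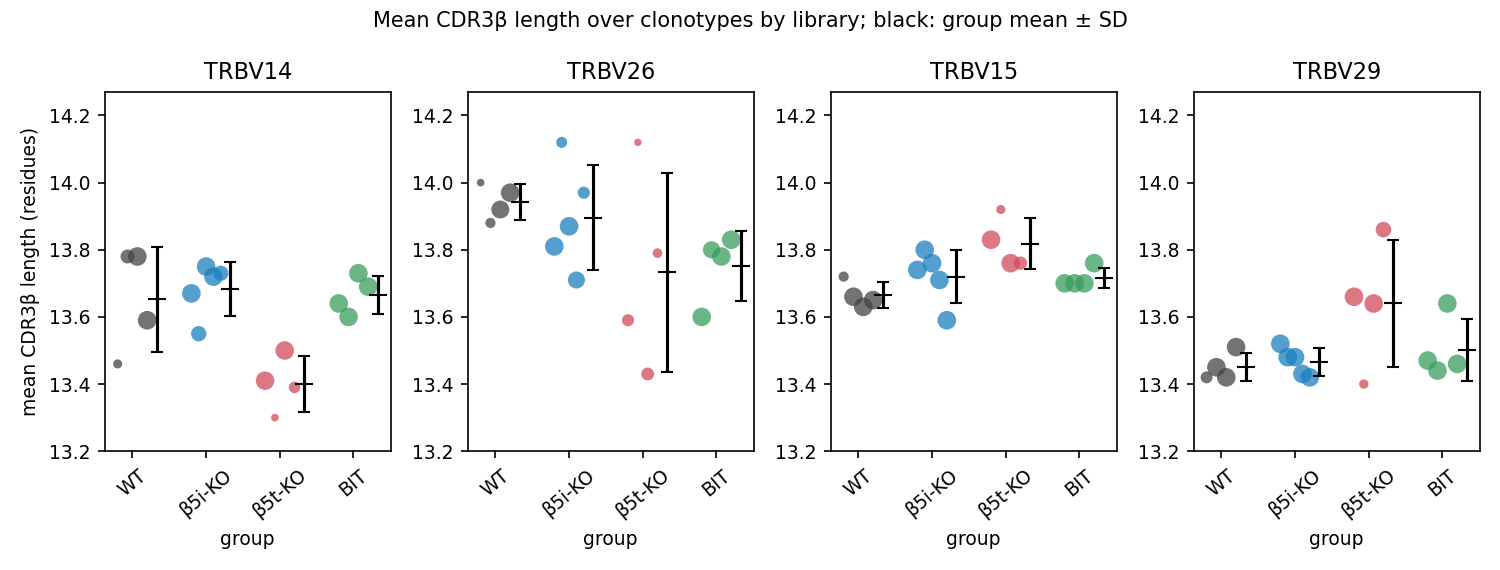
Mean CDR3β length (residues) over the clonotypes of TRBV14, TRBV26, TRBV15 and TRBV29, with 1 point per mouse; the point area grows with the number of clonotypes up to 200, black marks give the group mean ± SD, and the axis does not start at 0. The 4 β5t-KO points lie low for TRBV14 (13.30 to 13.50) and high for TRBV15 (13.76 to 13.92).

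By origin of the bases, TRBV14 junctions of β5t-KO mice had 40.2 ± 0.242 CDR3 bases against 41 ± 0.493 in WT, with 13.1 against 13.1 assigned to V, 9.08 against 9.15 between V and J and 18 against 18.8 assigned to J (means of 4 libraries each). TRBV29 junctions had 41 ± 0.578 against 40.3 ± 0.105 bases, with 13.2 against 13.1, 9.02 against 8.85 and 18.7 against 18.4 in the same order. TRBV15 junctions had 41.5 ± 0.233 against 41 ± 0.0834 bases. For TRBV14 the WT libraries spanned 7.81 to 9.86 bases between V and J, and the β5t-KO libraries 8.9 to 9.31. In β5i-KO and BIT libraries the TRBV14 means were 9.83 and 9.64 bases between V and J, and 18.3 and 18.3 assigned to J. The parts of the junctions were not tested, so the shorter TRBV14 CDR3β cannot be assigned to 1 of them.

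BIT mice were compared with each of the other groups, sharing those libraries with the comparisons above. Against β5t-KO mice, 2 of the 9 genes were called, TRBV14 longer by 0.22 ± 0.06 residues (limma adjusted p 0.0237) and TRBV29 shorter, at -0.19 ± 0.06 (adjusted p 0.0289), beside 19% of the 21 genes called, 14.3% longer and 4.76% shorter. TRBV14 values of the 2 groups did not overlap. With the block TRBV14 differed by 0.26 ± 0.06 (limma adjusted p 0.00833) and TRBV29 by -0.18 ± 0.06 (adjusted p 0.06), and 9.52% of genes were called. Of the 12 other TRBV genes 2 were longer and 0 shorter. Leaving out BIT 5 or β5t-KO 1 ended the TRBV14 call (adjusted p up to 0.0768).

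In the remaining comparisons 0 of the 9 genes were called by limma (0% of 21 genes in each). At an unadjusted p under 0.05 there were 0 of the 9 for β5i-KO against WT, 1 for BIT against WT (TRBV26) and 1 for BIT against β5i-KO (TRBV30). Over all 21 genes there were 0, 2 and 1 in this order (0, 9.52 and 4.76%). Differences of the 9 genes ranged from -0.10 to 0.13 residues between β5i-KO and WT, from -0.19 to 0.06 between BIT and WT and from -0.18 to 0.06 between BIT and β5i-KO mice. The smallest p of the 9 genes between β5i-KO and WT mice was that of TRBV30, at 0.13 ± 0.09 residues (limma adjusted p 0.78). TRBV16 CDR3β averaged 14.05 ± 0.07, 14.10 ± 0.08, 14.07 ± 0.11 and 14.11 ± 0.03 residues (SD) in the same order of groups as above, and was called in none of the 5 comparisons. TRBV20 and TRBV30, with the fewest germline bases in the CDR3, had the shortest means over all libraries, 13.15 ± 0.24 and 13.05 ± 0.18 residues.

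**Figure D5:**
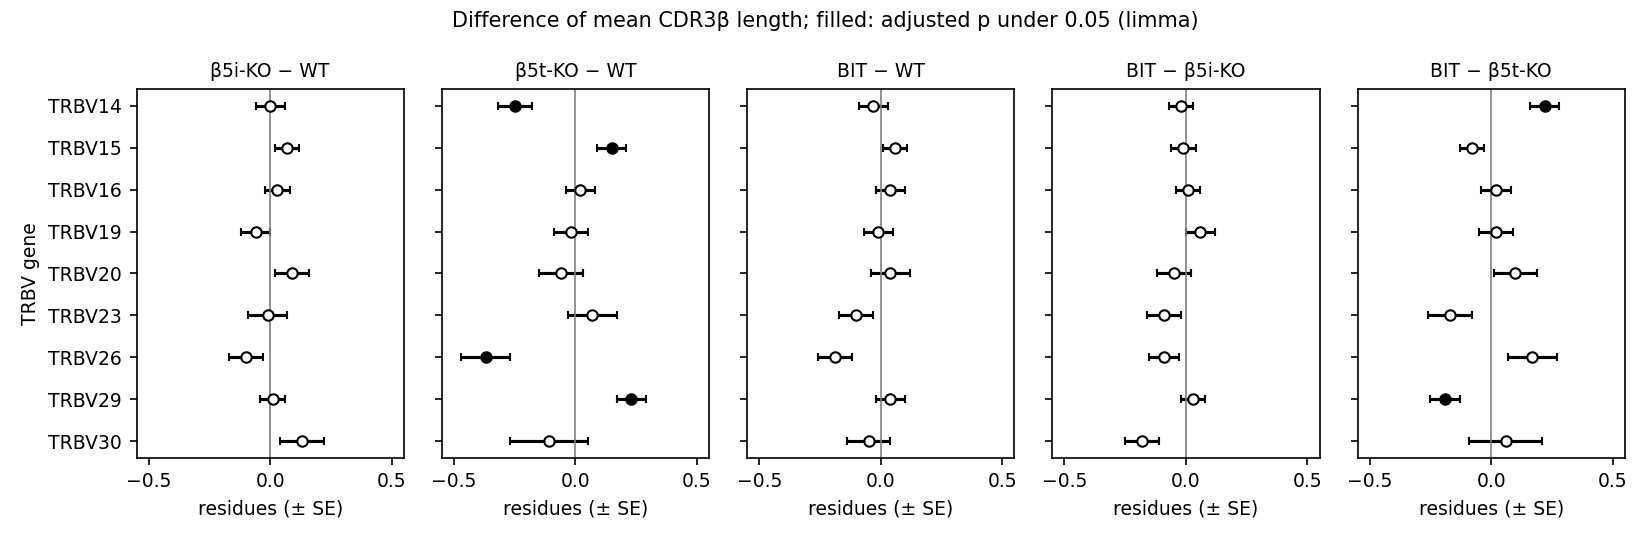
Difference of mean CDR3β length (residues, first group minus second, ± SE) for 9 TRBV genes in 5 comparisons, from limma with all 17 libraries in 1 fit; filled points have an adjusted p under 0.05. Filled points are TRBV14, TRBV15, TRBV26 and TRBV29 for β5t-KO against WT and TRBV14 and TRBV29 for BIT against β5t-KO.

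Leaving out 1 library changed several of these calls. TRBV14 in β5t-KO against WT passed except without WT 3 (limma adjusted p up to 0.0545) and TRBV26 except without β5t-KO 3 (up to 0.0863), TRBV29 passed without each of the 8 libraries in turn (at most 0.0215), and TRBV15 failed without any of WT 2, 3 and 4 and β5t-KO 1 and 3 (up to 0.158). TRBV29 in BIT against β5t-KO failed without β5t-KO 1 or 4 or BIT 1, 2 or 5 (up to 0.0851). With the molecules of each library thinned to 7669, an alternative added after the data were seen, TRBV29 alone of the 9 genes was called in β5t-KO against WT, and TRBV14 had an adjusted p of 0.134 in limma. Without weights TRBV14 alone of the 9 genes was called in β5t-KO against WT (limma adjusted p 0.0313), beside 2 of all 21 genes.

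Single clonotypes were compared last, by reads, for those that reached 10 CPM (reads scaled to a common total) in 3 or more mice of any group. Of 1376 such recurring clonotypes 470 used the 10 genes, and edgeR called 0 of them in each of the 5 comparisons (0% of all 1376), while 188, 182, 199, 120 and 292 had an unadjusted p under 0.05 in the order above. These are 40, 38.7, 42.3, 25.5 and 62.1% of the 470, close to the 38.7, 40.6, 41.2, 24.6 and 59.3% of all 1376. The spread between mice was wide, with a median dispersion of 9.37. DESeq2 called 62, 156, 54, 31 and 181 of the 470. Of all 1376 it called 193, 457, 188, 87 and 527 (14, 33.2, 13.7, 6.32 and 38.3%). The rule keeps a clonotype through the group in which it is frequent, so these counts are no support for a difference between genotypes. Depth differed too, with 8119 to 45127 TCRβ molecules in β5t-KO and 41405 to 146469 in BIT libraries, and its part in these counts was not tested. The largest clonotype of the 10 genes in a library held 0.019 to 0.991% of its unique molecules, and it was the largest of all TRBV genes in β5i-KO 2 and β5i-KO 4.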

How the data were processed

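TCR transcripts of sorted CD4-CD8+ T cells (TCRβ high) were amplified with the SMARTer Mouse TCR a/b kit, whose unique molecular identifiers mark single cDNA molecules. The deposited counts are whole numbers of reads and of unique molecules per clone, which the authors assembled with MiXCR. The MiXCR version and clone filters are not given in the sources used here. The submitters' processing notes name the build mm10. Coordinates and germline sequences printed here come from GRCm39 (GENCODE vM39), matched by gene name, and were not converted.

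In-frame clones were merged to clonotypes (V gene, J gene and CDR3β amino acid sequence). Clonotypes per TRBV gene or TRBV-TRBJ pair were tested with edgeR 4.0.16 (quasi-likelihood, library size normalisation), for genes or pairs with at least 5 clonotypes in at least 4 libraries. Mean CDR3β length was tested with limma 3.58.1, weighted by clonotypes up to 200, leaving out a library with under 5 clonotypes of a gene. Recurring clonotypes were tested on reads with edgeR. Each fit held all 17 libraries, with Benjamini-Hochberg adjustment over all features and a threshold of 0.05. DESeq2 1.42.0 was an alternative. The edgeR and limma tests were also run on simulated data with known changes, and the outcome is not given here. R 4.3.3 and Python 3.11.15 were used. Reads are PCR copies, so intervals and limits cover counting error only. The methods describe individual mice, 1 per library.

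Replicate numbers were checked for pairing by correlating same-numbered deviations of log2(percent of clonotypes + 0.1) from the group means. The correlations ran from 0.21 to 0.92 for β5i-KO and WT, from 0.15 to 0.83 for β5t-KO and WT and from 0.12 to 0.61 for BIT and β5t-KO, which passed as paired in this check. BIT and WT (-0.35 to 0.64) and BIT and β5i-KO (-0.02 to 0.95) did not pass. The main fits held the group only, without the replicate number, in every comparison. The block was an alternative, and values without mention of it are unpaired. The outcome of the check depends on the amount added. With 0.01 the lowest correlation was -0.11 between β5i-KO and WT libraries and -0.09 between BIT and β5t-KO libraries. With 1 it was 0.01 between β5t-KO and WT libraries and 0.11 between BIT and β5i-KO libraries. BIT and WT libraries alone had the same answer with each of the amounts 0.01, 0.1, 0.5 and 1. The labels do not say what a number marks.

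The 10 genes and all lists were chosen with earlier results of these data known. Named are all 10 genes, with statistics for those called and for the smallest p of each comparison, the leading pairs, the germline ends, and the clonotype of each gene found in the most libraries.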

Additional observations from a re-analysis of the deposited data

Results flagged for a closer look

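Sets of 4 or 5 libraries within a group were checked for 1 library apart from the others by its gap relative to the range. There were 44 sets of a gene's share or the summed share and 36 of a gene's mean CDR3β length. Such a library was found in 7 of 80 sets (8.75%). Chance is taken to find about 1 in 20. The rule does not weigh a library by its clonotypes (384 to 39542), and the sets share libraries, so 8.75% is not read as an excess. The TRBV15 share was 6.77% in β5t-KO 2, with the next at 4.63%. The TRBV20 share was 2.05% in β5i-KO 4, with the next at 3.1%. The TRBV23 share was 1.81% in β5i-KO 2, with the next at 1.18%. The TRBV24 share was 0.326% in WT 1, from 3 clonotypes, with the next at 0.0531%. Mean TRBV20 CDR3β length was 13.88 residues in WT 1, with the next at 13.04. Mean TRBV15 length was 13.76 residues in BIT 5, with the next at 13.70, and mean TRBV29 length was 13.64 residues in BIT 4, with the next at 13.47. β5t-KO 2 and WT 1 are the shallowest libraries, with 384 and 919 clonotypes.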

How the results depend on the processing

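Signs were followed for the usage and length differences of genes called or with the smallest p in a comparison. TRBV16 usage in β5t-KO against WT was followed too. None of these changed sign. Signs of pairs and of the other genes were not followed one by one. Medians near 0 over the genes of this report did change sign, so single genes near 0 did as well. Examples are usage in BIT against β5i-KO (-0.03, and 0.03 without the libraries numbered 4), usage in BIT against β5t-KO (-0.02, and 0.02 by reads) and length in BIT against β5t-KO (0.02, and -0.05 without weights). Of 140 alternatives for counts of called genes, pairs or clonotypes, leaving out single libraries aside, 125 stayed within 1.5 times the reported count. The reported count was above 0 only for length calls in β5t-KO against WT and in BIT against β5t-KO. For all others it was 0, and an alternative that gave 0 again was taken as unchanged. The 125 thus says little about the counts above 0, whose changes are given below. Calls of usage among the 10 genes in β5t-KO against WT rose from 0 to 1 with DESeq2 (TRBV14) and to 1 with the replicate block (TRBV16, log2 0.25, adjusted p 0.0335). Length calls in β5t-KO against WT fell from 4 of 9 genes to 1 without weights and to 1 with thinned molecules, and ranged from 2 to 4 on leaving out 1 library. Length calls in BIT against β5t-KO fell from 2 to 1 without weights, to 1 with the replicate block, and to 0 each for the mean over molecules, for clonotypes with at least 2 molecules and with thinned molecules, and ranged from 0 to 2 on leaving out 1 library. DESeq2 called 62, 156, 54, 31 and 181 recurring clonotypes in the 5 comparisons where edgeR called 0, and edgeR with TMM normalisation called 306 of 470 in BIT against β5t-KO, beside 855 of all 1376 (62.1%). Leaving out 1 library gave 0 to 33 recurring clonotypes in BIT against WT (33 without BIT 2), 0 to 30 in BIT against β5i-KO (30 without BIT 4), 0 to 38 in BIT against β5t-KO (38 without BIT 2), and 0 to 0 in the counts not named here. The cause was not tested. The block changed no other call among the 10 genes beyond TRBV16 usage and TRBV15 and TRBV29 length. The thinned and 2-molecule length alternatives, and leaving out all libraries numbered 4, were chosen after seeing the data. Shallow libraries limit the rare genes, most of all TRBV24.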
